A study of Mus musculus with 6 samples.

Results

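Cytochrome P450 genes were examined in epididymal fat of mice fed a normal diet (ND) or a high-fat diet (HFD). The family members were the protein-coding genes whose GENCODE M21 symbol is Cyp followed by a family number, subfamily letters and a gene number, and there were 94 of them among the 54532 genes counted. Of these, 33 had at least 30 counts summed over the 6 libraries and are described here, 24 had between 1 and 29 counts, and 37 had no count in any library. The rule left out 6 further protein-coding genes whose symbols have another form. Of these, Cyp3a41a, Cyp3a41b, Cyp4a12a, Cyp4a12b and Cyp4a30b had no count in any library, and Cyp51 was read as a partner gene.

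RNA-Seq was performed on whole epididymal fat, the visceral depot beside the epididymis, from male C57BL/6J mice. The 3 ND samples came from mice on a diet of 4.5% fat and the 3 HFD samples from mice on 60% fat. Mice started their diet when 4 weeks old and stayed on it for 16 weeks, so that the HFD-fed mice were 20 weeks old at the end. No sample had received a drug, and no transgene or deletion was involved. The labels number the replicates without naming the animals, so the p-values measure the spread between these samples. The libraries are called ND1 to ND3 and HFD1 to HFD3 after those numbers. Equal numbers in both diets gave no sign of marking a pair.

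P450 enzymes hold a haem group and insert oxygen into small molecules. Those in the endoplasmic reticulum receive electrons from the reductase Por, and the mitochondrial ones from the ferredoxin Fdx1 and its reductase Fdxr. Families 1 to 3 contain most of the enzymes that oxidise drugs, solvents and combustion products, family 4 oxidises fatty acids and eicosanoids, and others make or degrade sterols, bile acids, steroids, retinoic acid and vitamin D. Liver is the organ best known for them, and fat cells carry some of them, Cyp2e1 included.

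The libraries held between 16996896 and 18859320 counts, and the median total was 18727850 for ND against 17622657 for HFD. A gene at the floor of 3 counts had between 0.149 and 0.180 CPM (the count scaled to the size of its library after TMM normalization), which covers counting error only. The defining genes of fat were abundant in every library, since 10 adipocyte markers together had between 35326 and 45244 CPM on ND, and between 15350 and 35757 CPM on HFD. Cfd alone gave 11711 to 15619 CPM of that sum on ND and 162 to 2501 CPM on HFD. By edgeR's quasi-likelihood test at an adjusted p-value of 0.05, Cfd was lower on HFD, Lep was higher, and 8 were not called. Summed over 10 macrophage markers, the level was between 1787 and 1878 CPM on ND, and between 3803 and 8322 CPM on HFD, and 7 of the 10 genes were higher on HFD by edgeR's quasi-likelihood test at an adjusted p-value of 0.05. ND3 stood apart. The sum of 6 markers of ciliated epithelium was 108 CPM there against 2.48 to 5.58 CPM elsewhere, and each of the 6 was highest in ND3. The sum of 7 kidney epithelium markers was 44.7 CPM against 0.0575 to 0.962 CPM, but Cdh16 alone, with 837 counts, gave 41.6 CPM of it. The kidney markers Umod and Slc34a1 had 7 and 12 counts in ND3 and none elsewhere, Slc12a1 had none in ND3, and Nphs1 and Kap had none in any library. Summed over 6 epididymis markers, the level was 1.64 CPM in ND3 against 0.0575 to 1.38 CPM elsewhere. In bulk tissue, fewer cells of a type and less RNA per cell cannot be told apart.

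Of the 33 described members, 26 had enough counts to be tested by edgeR's quasi-likelihood test among 15751 genes, and 8 passed an adjusted p-value of 0.05. Cyp2f2, Cyp1a1, Cyp2e1 and Cyp2b10 were lower on HFD. Cyp2c23, Cyp4v3, Cyp4f18 and Cyp4b1 were higher. The 4 lower genes were 15.4% of the tested members, against 6.04% of all genes tested, and the 4 higher genes were again 15.4%, against 9.85% of all genes. The median log2 fold change was 0.11 over the tested members and 0.01 over all genes. HFD values lay wholly below ND values in 4 members and wholly above in 7, where all genes gave 19.0% and 21.9%. The diets thus did not overlap in 11 of the 26, against 40.9% of all genes. These counts carry no weight as evidence about the family, since Cyp2f2, Cyp2c23 and Cyp2b10 had fewer than 10 counts in every library of 1 diet and were tested only because of the other diet. Cyp1a1 (2, 11 and 1 counts on HFD) and Cyp4f39 (2, 10 and 12 counts on ND) could also not have been tested on the strength of that diet alone.

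**Figure D1:**
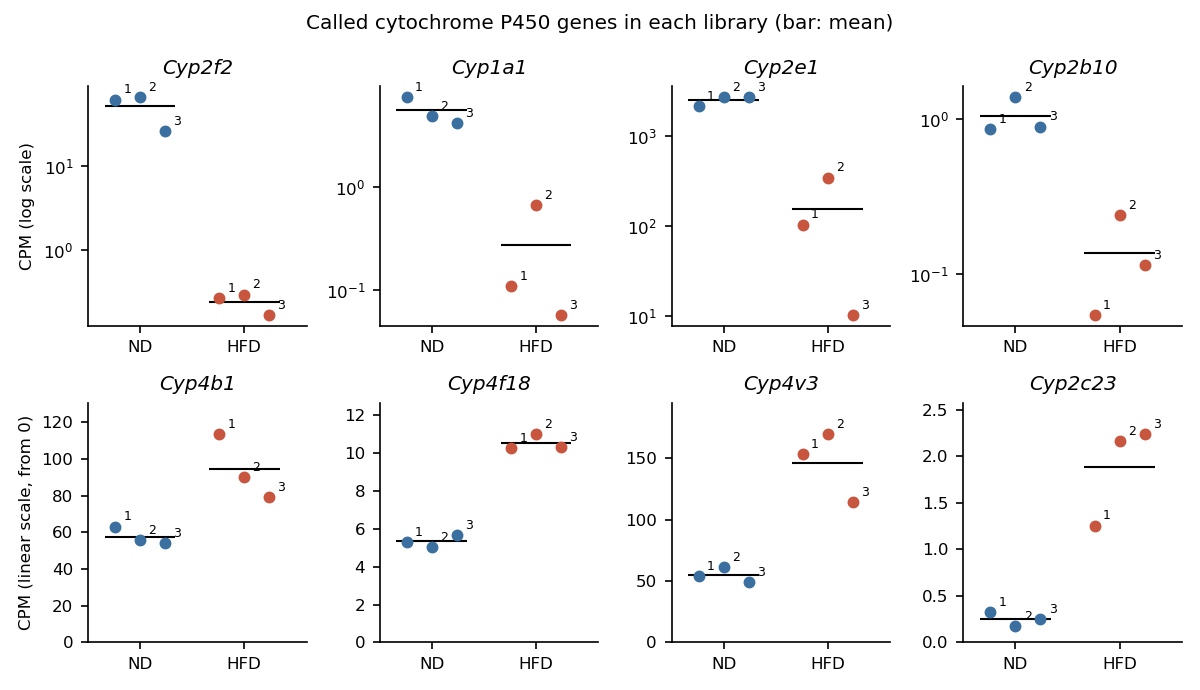
CPM of the 8 P450 genes that passed the test, with 1 point per library numbered by replicate and a bar at the mean of 3 libraries. The upper row, on a log scale, holds the 4 genes lower on HFD, and the lower row, on a linear scale from 0, holds the 4 genes higher on HFD. The diets overlap in none of the 8 genes, and Cyp2e1 spreads most on HFD, from 10.2 to 345 CPM.

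The promoters of the 4 genes that fell are shown because these genes moved in 1 direction and the receptors known to control some of them recognise short motifs. They are RefSeq windows of 300 bases on GRCm38.p6, from 250 bases before to 50 bases after the start, printed 5′ to 3′ along the gene. Capitals mark GCGTG, the core of the element bound by the aryl hydrocarbon receptor Ahr, and AGGTCA, a short site known to be bound by nuclear receptors, both searched on both strands. The windows are chr9:57697363-57697662 (+) for Cyp1a1, chr7:25897408-25897707 (+) for Cyp2b10, chr7:27119705-27120004 (+) for Cyp2f2 and chr7:140763569-140763868 (+) for Cyp2e1.
Cyp1a1: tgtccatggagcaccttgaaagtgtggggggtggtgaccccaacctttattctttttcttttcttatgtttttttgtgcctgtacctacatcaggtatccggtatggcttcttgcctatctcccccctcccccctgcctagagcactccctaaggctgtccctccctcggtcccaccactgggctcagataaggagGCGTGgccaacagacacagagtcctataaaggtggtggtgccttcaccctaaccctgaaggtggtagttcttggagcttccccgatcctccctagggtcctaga
Cyp2b10: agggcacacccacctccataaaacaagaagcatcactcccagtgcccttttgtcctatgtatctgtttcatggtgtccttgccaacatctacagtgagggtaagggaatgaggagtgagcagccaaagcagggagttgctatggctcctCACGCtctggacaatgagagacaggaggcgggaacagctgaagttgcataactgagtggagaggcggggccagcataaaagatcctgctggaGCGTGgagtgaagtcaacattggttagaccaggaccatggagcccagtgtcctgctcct
Cyp2f2: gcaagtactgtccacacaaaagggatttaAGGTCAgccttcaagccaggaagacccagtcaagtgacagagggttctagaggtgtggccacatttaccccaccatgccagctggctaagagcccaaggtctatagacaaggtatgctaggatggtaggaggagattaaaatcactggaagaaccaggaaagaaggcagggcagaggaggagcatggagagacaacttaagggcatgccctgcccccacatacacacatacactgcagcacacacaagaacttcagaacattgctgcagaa
Cyp2e1: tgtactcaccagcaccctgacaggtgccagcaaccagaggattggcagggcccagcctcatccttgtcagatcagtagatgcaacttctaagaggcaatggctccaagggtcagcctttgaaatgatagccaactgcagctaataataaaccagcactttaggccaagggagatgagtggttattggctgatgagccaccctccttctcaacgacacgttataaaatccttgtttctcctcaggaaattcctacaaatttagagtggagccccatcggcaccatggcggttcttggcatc

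GCGTG began 54 bases before the start of Cyp1a1, and occurred at 2 places in the Cyp2b10 window. AGGTCA began 221 bases before the start of Cyp2f2. The Cyp2e1 window held neither run of letters. GCGTG was not confined to genes that fell. It began 16 bases before the start of Cyp4v3, which rose, and was absent from the windows of Cyp4b1 and Cyp4f18, which also rose. Members that were not called, such as Cyp1b1 and Cyp20a1, had it as well. A RefSeq promoter was at hand for 27 of the 33 described members, and GCGTG was present in 14 of their 32 windows, against 32.4% of the 32851 windows of all genes. AGGTCA was present in 4 of the 32, against 16.3% of all windows. A match is a run of letters and was not tested as a binding site.

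Among the 8 described members known mainly for oxidising foreign compounds, 7 were tested, 4 fell and 0 rose by edgeR's test, where 6.04% of all genes tested were lower and 9.85% higher. At an unadjusted p-value of 0.05, 1 member of this group was higher, and DESeq2 also called 1 higher. The role groups were assigned after the counts had been seen, so the split between them is a description.

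Cyp2e1 (ENSMUSG00000025479, chromosome 7 of GRCm38 from 140763739 to 140774987), which oxidises ethanol, acetone and small solvents, was by far the most abundant P450 mRNA on ND. It had 2175, 2737 and 2736 CPM in the ND libraries against 104, 345 and 10.2 CPM in the HFD libraries. All HFD libraries were below all ND libraries, but the HFD libraries differed among themselves by 33.9-fold and the ND libraries by 1.26-fold. The mean was 2549 ± 324 CPM on ND against 153 ± 173 CPM on HFD (± SD over 3 libraries). The log2 fold change was -4.06 (SE 1.07), a 16.7-fold fall with an adjusted p of 0.0443 by edgeR's test. This call was lost without ND1 (adjusted p = 0.102), ND2 (0.106), ND3 (0.0944) or HFD1 (0.158), with limma-voom (0.0621) and without the filter on low counts (0.198), while the fold change kept its direction. The call was also lost with the replicate number as a block and with limma on log2(FPKM + 1) with all genes.

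Cyp2e1 made up most of the summed level of the family on ND. Summed over all members, FPKM (the count per transcript length and library size), a scale per length, was 1211, 1472 and 1449 in the ND libraries against 254, 370 and 179 in the HFD libraries. Cyp2e1 made up 84.9%, 88.0% and 88.3% of that sum on ND. Its part on HFD was 19.0%, 43.6% and 2.65%, and Cyp4b1 took the first place in HFD1 and HFD3. Without Cyp2e1 the summed FPKM was 177 ± 6.90 on ND against 196 ± 19.4 on HFD, and the ranges overlapped, from 170 to 183 on ND and from 174 to 209 on HFD. Among all genes of a library, Cyp2e1 held FPKM rank 34, 30 and 24 on ND, and rank 1044, 287 and 7859 on HFD.

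**Figure D2:**
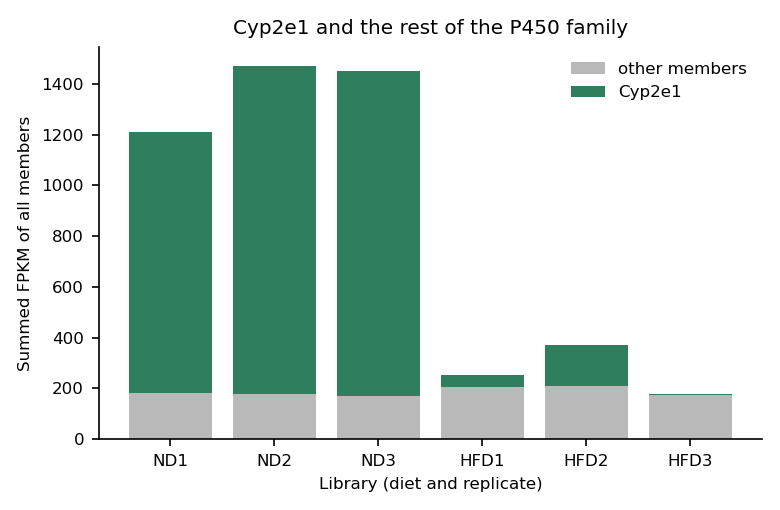
Summed FPKM of the 94 P450 members in each library (linear axis from 0), split into Cyp2e1 and all other members. The grey part stays between 170 and 209 in the 6 libraries, while the Cyp2e1 part, over 84% of each ND bar, falls to between 2.65% and 43.6% of the HFD bars.

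Since Cyp2e1 is known from adipocytes, its counts were also set against adipocyte genes. Per count of Adipoq, the adiponectin gene, there were 0.662, 0.720 and 0.977 counts of Cyp2e1 on ND against 0.0502, 0.0902 and 0.00988 on HFD. The ratio was lower in all HFD than in all ND libraries for each of the 10 adipocyte markers, Adipoq included. The diets came closest per count of Cfd, which was itself lower on HFD. There the ratio was 0.161 to 0.234 on ND against 0.0628 to 0.138 on HFD. Within HFD, Cyp2e1 and the summed adipocyte markers were both highest in HFD2 and lowest in HFD3, while the macrophage markers were lowest in HFD2 and highest in HFD3. The part of cell composition in the difference between diets was not tested.

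**Figure D3:**
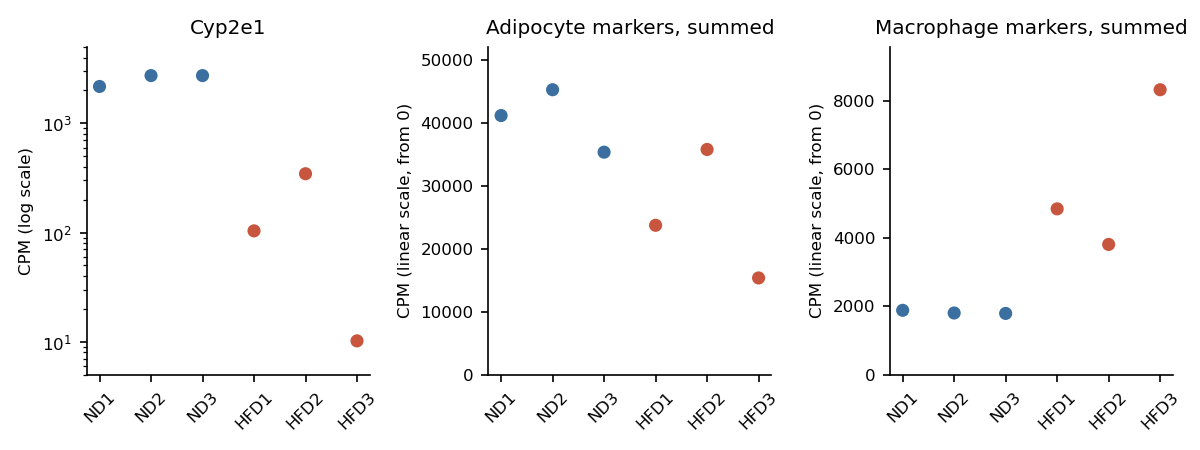
CPM of Cyp2e1 (log scale) and the summed CPM of 10 adipocyte and 10 macrophage markers (linear scales from 0), with 1 point per library. HFD3 has the least Cyp2e1 (10.2 CPM), the lowest adipocyte sum (15350 CPM) and the highest macrophage sum (8322 CPM).

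Cyp2f2 (ENSMUSG00000052974, chromosome 7 from 27119909 to 27133660), an enzyme of the airway epithelium known for activating naphthalene, had the largest fold change among the tested members. Counts of 1115, 1118 and 515 were found on ND, against 5, 5 and 3 on HFD. Every HFD library was thus close to the floor of 3 counts, and ND3 held fewer counts than ND1 and ND2. Per length, it held rank 3 in the family on ND, with 25.2 ± 10.9 FPKM, and rank 28 on HFD, with 0.124 ± 0.0337 FPKM. The log2 fold change was -7.62 (SE 0.51), 196-fold, with an adjusted p of 0.00161 by edgeR's test, and it passed in all 6 fits that left out 1 library. The exons of Cyp2f2 overlap those of Gm15883 on the other strand, and the library kit does not mark strand.

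Cyp1a1 (ENSMUSG00000032315, chromosome 9 from 57687928 to 57703824), the classic Ahr target that oxidises polycyclic aromatic compounds, had counts of 138, 84 and 84 on ND against 2, 11 and 1 on HFD. HFD1 and HFD3 were under the floor of 3 counts, and the diets did not overlap. The HFD counts alone could not have passed the filter on low counts, so the gene was tested because of ND. The mean was 5.50 ± 1.72 CPM on ND against 0.276 ± 0.335 CPM on HFD, a log2 fold change of -4.31 (SE 0.73, adjusted p = 0.0131 by edgeR's test). Leaving out ND1, ND2 or HFD1 ended the call, with adjusted p-values of up to 0.0649.

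Cyp1b1, which shares Ahr control and substrates with Cyp1a1, gave a different picture. It had 82.0, 63.0 and 69.0 CPM on ND against 63.2, 66.2 and 113 CPM on HFD, where HFD3 was the highest library and the other HFD libraries lay within the ND range. Its log2 fold change was 0.18 (SE 0.24, adjusted p = 0.640), and -0.16 without HFD3. Of the receptor genes behind this pathway, Ahr gave a log2 fold change of -0.08 (SE 0.19, adjusted p = 0.801) and its partner Arnt one of -0.13 (SE 0.11, adjusted p = 0.444). Ahrr, the Ahr repressor and itself an Ahr target, rose from counts of 7, 6 and 8 to 33, 15 and 22, with a log2 fold change of 1.80 (SE 0.41, adjusted p = 0.0282 by edgeR's test). Its call was lost in 5 of the 6 fits that left out 1 library, all but the one without HFD2, with adjusted p-values of up to 0.127, and without the filter on low counts (0.139). The part of Ahr in the fall of Cyp1a1 was not tested.

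Cyp2b10 (ENSMUSG00000030483, chromosome 7 from 25897620 to 25926624), the best known target of the receptor Car, was scarce. It had 16, 24 and 18 counts on ND against 1, 4 and 2 on HFD, with no overlap. The fall was 2.90 on the log2 scale, with an SE of 0.56 and an adjusted p of 0.0183 by edgeR's test, and it was lost without ND1, ND2 or HFD1, with adjusted p-values of up to 0.0801. The gene of Car, Nr1i3, had counts of 3, 0 and 5 on ND against 2, 0 and 0 on HFD, too few to test.

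The remaining members of this group did not pass. Cyp2s1, an epithelial enzyme, was higher in each HFD library (9.26 to 15.5 CPM) than in each ND library (4.64 to 9.10 CPM), with a log2 fold change of 0.97 (SE 0.31, adjusted p = 0.0721), and passed with DESeq2. Cyp2d22 had a log2 fold change of -0.26 (SE 0.25, adjusted p = 0.506). Cyp2d9 is described with the members confined to few libraries.

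As these enzymes are best known from liver, hepatocyte markers were read beside them. The sum of 6 hepatocyte markers was 17.9 to 29.1 CPM on ND against 2.70 to 11.7 CPM on HFD, so that it moved with the 4 genes that fell. Nearly all of it was Alb, with 253, 337 and 230 counts on ND against 60, 128 and 15 on HFD (adjusted p = 0.0847), and Serpina1a, with 154, 160 and 112 counts on ND against 43, 59 and 21 on HFD. Serpina1a was the 1 hepatocyte marker that passed, with a log2 fold change of -1.70 (SE 0.41, adjusted p = 0.0344 by edgeR's test). Apoa2 had 5 to 11 counts per library on ND and 5 to 10 on HFD, Ttr and Apob had at most 6 counts in a library, and Fgb had no count in any. The part of hepatocyte RNA in the falls was not tested.

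**Figure D4:**
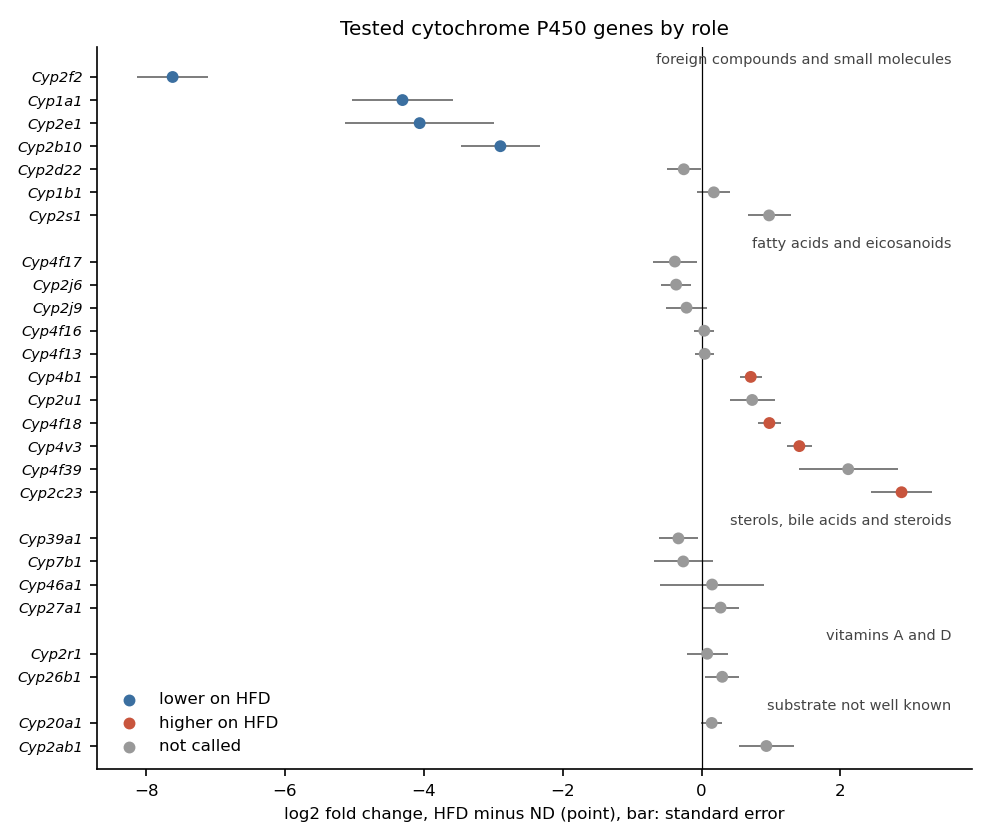
Log2 fold change (HFD minus ND) of the 26 tested P450 genes by role, with points at the estimate and bars of 1 standard error. The 4 genes called lower, between -7.62 and -2.90, stand in the group for foreign compounds, and the 4 called higher, between 0.71 and 2.88, in the group for fatty acids and eicosanoids. Role groups were assigned after the counts had been seen, Cyp4b1 by its family and Cyp2c23 by its substrate.

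Of the 13 described members that act mainly on fatty acids and eicosanoids, 11 were tested, 4 rose and 0 fell by edgeR's test, where 9.85% of all genes tested were higher and 6.04% lower. An unadjusted p-value of 0.05 and DESeq2 each gave 5 higher and 0 lower members in this group. Cyp4b1, placed here by its family, also acts on foreign compounds, whereas Cyp2c23 of family 2 was placed here by its substrate. The split between the role groups depends on such choices. By family, 3 fell and 1 rose among 11 tested members of family 2, and 0 fell and 3 rose among 8 of family 4.

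Cyp4v3 (ENSMUSG00000079057, chromosome 8 from 45304944 to 45333216), an omega-hydroxylase of fatty acids and the mouse counterpart of human CYP4V2, had 54.0, 61.6 and 49.0 CPM on ND. On HFD it had 153, 170.0 and 115 CPM, and the lowest HFD library exceeded the highest ND library. The mean rose from 54.9 ± 6.35 to 146 ± 28.4 CPM, a log2 fold change of 1.41 (SE 0.18, 2.66-fold) with an adjusted p of 0.00652 by edgeR's test. It was the only higher member that passed in all 6 fits with 1 library left out. Its exons overlap those of Gm45753.

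Cyp4b1 (ENSMUSG00000028713, chromosome 4 from 115624725 to 115647723) was second only to Cyp2e1 in mean FPKM on both diets. It had 63.2, 55.7 and 54.2 CPM on ND against 114, 90.1 and 79.3 CPM on HFD, without overlap. Per length, the means were 26.0 ± 2.28 FPKM on ND against 42.1 ± 7.92 FPKM on HFD. The log2 fold change was 0.71 (SE 0.16, 1.63-fold, adjusted p = 0.0259 by edgeR's test), the smallest of the 8 changes that passed. It did not pass without ND1, ND2, ND3 or HFD1, with adjusted p-values of up to 0.103.

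Cyp4f18 (ENSMUSG00000003484, chromosome 8 from 71988482 to 72009626), which inactivates leukotriene B4 in neutrophils and other leukocytes, had 98, 87 and 114 counts on ND against 188, 183 and 179 on HFD. The replicates of each diet lay close together, at 5.33 ± 0.318 CPM on ND against 10.5 ± 0.422 CPM on HFD. The log2 fold change was 0.98 (SE 0.17, 1.97-fold, adjusted p = 0.0133 by edgeR's test). The call was lost without ND1, ND2 or HFD1, with adjusted p-values of up to 0.0733. The macrophage markers given above were also higher on HFD, and their part in this difference was not tested. Its exons overlap those of Zfp961 on the other strand.

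Cyp2c23 (ENSMUSG00000025197, chromosome 19 from 44005022 to 44029208), an arachidonic acid epoxygenase best known from kidney, was scarce on ND, with 6, 3 and 5 counts. It had 23, 36 and 39 counts on HFD, each above every ND library. The log2 fold change was 2.88 (SE 0.44, 7.37-fold, adjusted p = 0.0101 by edgeR's test), and only leaving out ND2 ended the call (adjusted p = 0.0504). ND3, the library with Cdh16, had 5 of these counts.

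The other Cyp4f genes lie in a cluster on chromosome 17 from 32452723 to 32947402, in which 5 of 8 members were described. Cyp4f13 and Cyp4f16 did not pass, with log2 fold changes of 0.05 (SE 0.14, adjusted p = 0.838) and 0.04 (SE 0.15, adjusted p = 0.871). Cyp4f17 had a log2 fold change of -0.38 (SE 0.31, adjusted p = 0.428). Cyp4f39, linked to the ultra-long fatty acids of skin lipids, had 2, 10 and 12 counts on ND against 18, 21 and 59 on HFD. The diets did not overlap, HFD3 held 48.4% of its counts, and the log2 fold change of 2.11 (SE 0.72) missed the threshold with an adjusted p of 0.0857. Cyp4f14 was too scarce to test, with 9, 10 and 12 counts on ND against 5, 6 and 4 on HFD.

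The arachidonic acid epoxygenases of the Cyp2j subfamily did not pass. Cyp2j6 had 34.3, 33.5 and 31.5 CPM on ND against 26.7, 32.6 and 17.9 CPM on HFD, a log2 fold change of -0.37 (SE 0.21, adjusted p = 0.268), with HFD2 inside the ND range. Cyp2j9 had a log2 fold change of -0.22 (SE 0.30, adjusted p = 0.647). Cyp2u1, a fatty acid hydroxylase, had one of 0.73 (SE 0.32, adjusted p = 0.161).

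None of the tested members that act on sterols, bile acids and steroids, which were 4 of the 7 described, passed edgeR's test. An unadjusted p-value of 0.05 also gave 0, and DESeq2 called 1, Cyp2c70. Cyp27a1 (ENSMUSG00000026170, chromosome 1 from 74713574 to 74737892), the mitochondrial sterol 27-hydroxylase, was the most abundant of them, with 48.6, 35.1 and 56.0 CPM on ND against 57.0, 73.6 and 38.8 CPM on HFD. Both diets spread widely and overlapped, and the log2 fold change was 0.27 (SE 0.26, adjusted p = 0.498). Per length it had 21.8 ± 4.84 FPKM on ND against 26.1 ± 8.10 FPKM on HFD.

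Cyp7b1 and Cyp39a1, both oxysterol 7α-hydroxylases, had log2 fold changes of -0.26 (SE 0.43, adjusted p = 0.702) and -0.33 (SE 0.28, adjusted p = 0.438). Cyp46a1, the cholesterol 24-hydroxylase of neurons, had 3 to 20 counts per library and a log2 fold change of 0.15 (SE 0.75, adjusted p = 0.907). Cyp11a1, which cleaves the cholesterol side chain at the start of steroid synthesis, had 9, 2 and 17 counts on ND against 7, 9 and 18 on HFD. Of 6 markers of steroid-making cells, Hsd3b1 and Hsd3b6 had no count in any library, Star had 63 to 113 counts per library, and Insl3, Nr5a1 and Lhcgr had 139, 38 and 31 counts in all. Cyp8b1, the sterol 12α-hydroxylase of bile acid synthesis, stood at the limit of the described set with 30 counts, next to Cyp2t4 with 33. Just outside were Cyp4f15 with 24 and Cyp26a1 with 19.

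For the vitamins, Cyp26b1, which degrades retinoic acid, had a log2 fold change of 0.30 (SE 0.25, adjusted p = 0.430), and Cyp2r1, a vitamin D 25-hydroxylase, one of 0.08 (SE 0.29, adjusted p = 0.868). A further 3 members have no well established substrate. Cyp20a1 (ENSMUSG00000049439, chromosome 1 from 60343323 to 60388060) had 35.0, 32.4 and 29.1 CPM on ND against 34.6, 30.5 and 41.8 CPM on HFD, with overlapping diets and a log2 fold change of 0.15 (SE 0.15, adjusted p = 0.524). Cyp2ab1 was higher in all HFD than in all ND libraries but did not pass, with a log2 fold change of 0.93 (SE 0.39, adjusted p = 0.141). Cyp2t4 had 1 to 17 counts per library and was not tested.

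Some members were nearly confined to 1 library or 1 diet. Cyp2j13 (ENSMUSG00000028571, chromosome 4 from 96027534 to 96077546) had 43 counts in ND3 and none elsewhere. Cyp2d9 (ENSMUSG00000068086, chromosome 15 from 82433437 to 82456845) had 64 counts in ND3, 1 in HFD2 and none in the other 4 libraries. Neither gene was testable, and ND1 and ND2 on the same diet had no count of either. In Cyp2d9, 16.7% of 75-base exonic windows also occur in another gene, the largest share among the described members, and its exons overlap Gm27622 and Gm46501, so its counts are uncertain.

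Some further members with few counts had most of them in ND3. Together the 24 members with 1 to 29 counts had 179 counts, of which 65 (36.3%) were in ND3. Cyp4f15 and Cyp2d26 gave 24 and 17 of these. Counted over all 94 members, 8 had at least 80% of their counts in ND3 and 5 had counts in ND3 alone, against 0 in ND1 alone, 0 in ND2 alone, and 1, 1 and 2 in HFD1, HFD2 and HFD3 alone. Besides Cyp2j13, those confined to ND3 were Cyp4f15 with 24 counts, Cyp4f40 with 4, and Cyp4a31 and Cyp2a5 with 1 each. Those confined to an HFD library were Cyp4a10 with 4 counts, and Cyp2c65, Cyp2b13 and Cyp2c55 with 1 each. A gene with 1 count is confined to 1 library by necessity, and the share of all genes confined to each library is not given here. ND3 is the library with the ciliated epithelium markers and Cdh16 given above. Hnf4a, a receptor that drives P450 genes in liver and kidney, had 631 of its 632 counts there, and the other count in HFD1. The part of epithelial tissue in these counts was not tested.

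Cyp2c70 (ENSMUSG00000060613, chromosome 19 from 40153353 to 40187333), the muricholate-forming enzyme of mouse liver, went the other way. It had 0, 0 and 1 count on ND against 36, 9 and 15 counts on HFD, of which HFD1 held the most. Against the floor of 3 counts in each ND library, it was at least 6.95-fold higher on HFD. It did not pass the filter on low counts, but was called by DESeq2 and by edgeR without the filter. It was the only described one of 14 members in the Cyp2c cluster on chromosome 19, and none of the 6 members of the Cyp3a cluster on chromosome 5, the main drug oxidising genes of liver and gut, reached 30 counts.

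Members of the same cluster were not all called alike. On chromosome 7, between 25802475 and 27158668, lie 13 members, of which Cyp2s1, Cyp2b10, Cyp2f2 and Cyp2t4 were described. Cyp2f2 and Cyp2b10 fell in this stretch, whereas Cyp2s1 had a positive log2 fold change of 0.97 without passing.

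Genes that work with the P450 enzymes were read from a list of 43, of which 36 were tested. By edgeR's test 4 fell and 5 rose, beside 6.04% and 9.85% of all genes, and the median log2 fold change was -0.28. Por, the electron donor of all microsomal members, had 387 ± 20.7 CPM on ND against 273 ± 31.7 CPM on HFD. Each HFD library (4163 to 5064 counts) was below each ND library (6902 to 7624 counts), yet the log2 fold change of -0.51 (SE 0.15) missed the threshold with an adjusted p of 0.0577. With DESeq2 it passed (adjusted p = 0.00519).

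Fdx1, which feeds the mitochondrial members, fell from 971, 1262 and 1066 counts to 579, 649 and 329, a log2 fold change of -1.00 (SE 0.27, adjusted p = 0.0486 by edgeR's test), and the call was lost without ND1, ND2, ND3 or HFD1, without the filter on low counts, and in each of the 3 fits on the FPKM scale. For Fdxr it was 0.24 (SE 0.18, adjusted p = 0.401). Pgrmc1, a haem protein that binds P450 enzymes, fell from 3635, 4067 and 3779 counts to 2529, 2428 and 2504, by 0.53 on the log2 scale (SE 0.13, adjusted p = 0.0370). The cytochrome b5 reductase Cyb5r1 rose from 659, 588 and 614 counts to 846, 754 and 926, by 0.53 on the log2 scale (SE 0.12, adjusted p = 0.0270), and Cyb5r3 from 4858, 4782 and 4812 counts to 6530, 6168 and 6700, by 0.51 (SE 0.13, adjusted p = 0.0425). The diets did not overlap in these 3 genes, but none of them, nor Fdx1, passed in more than 2 of the 6 fits with 1 library left out. Alad, which makes the pyrrole unit of haem, had the lowest adjusted p of the partners that fell. It went from 1382, 1384 and 1732 counts to 527, 640 and 423. Its log2 fold change was -1.40 (SE 0.18, adjusted p = 0.00724) and passed in all 6 fits with 1 library left out. Alas1, the rate-limiting step of haem synthesis, gave a log2 fold change of 0.25 (SE 0.16, adjusted p = 0.316).

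Among the receptors that control P450 genes, Nr1h4, the bile acid receptor, fell from 40, 33 and 39 counts to 16, 16 and 15, a log2 fold change of -1.15 (SE 0.30, adjusted p = 0.0415 by edgeR's test). It passed in 0 of the 6 fits with 1 library left out, with adjusted p-values from 0.0642 to 0.148. Ppara, which drives fatty acid hydroxylases in liver, had a log2 fold change of -1.20 (SE 0.40) and an adjusted p of 0.0813 by edgeR's test. Each HFD library (25 to 75 counts) was below each ND library (114 to 142 counts), and Ppara passed with DESeq2 and without HFD2. The paper, which used DESeq2, reports PPARα as significantly decreased on HFD in this fat. Outside the naming pattern, thromboxane synthase Tbxas1, a P450 enzyme abundant in macrophages, rose from 299, 242 and 318 counts to 1460, 821 and 2155, a log2 fold change of 2.46 (SE 0.32, adjusted p = 0.00752). Ephx1, the microsomal epoxide hydrolase that acts on P450 products, rose from 936, 642 and 1403 counts to 2688, 2679 and 2497, a log2 fold change of 1.52 (SE 0.23, adjusted p = 0.00985), which was lost without ND1 (0.0521). Cyp51, the sterol 14-demethylase, spread widely on both diets and did not pass, with a log2 fold change of -0.68 (SE 0.47, adjusted p = 0.353). The macrophage markers moved with Tbxas1, and their part in its rise was not tested.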

How the data were processed

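RNA-Seq of epididymal fat was available for 3 ND and 3 HFD samples, with diet and replicate number taken from the labels. The libraries were made with a kit that does not mark strand. The paper's methods give mapping to GRCm38 with TopHat and Cufflinks at default settings, whereas the submitters' processing notes name fastp, HISAT2 2.0.5, featureCounts 1.5.0-p3 and DESeq2 1.20.0, and a human build, although the gene identifiers are of mouse. The annotation release and the treatment of reads that map to several places are not given in the sources used here. The authors deposited raw counts per gene, not normalized, together with FPKM values. The deposited FPKM values equalled the counts after division by 1 length per gene and 1 factor per library (checked on 11492 genes). No column of per-sample values was left unused. Symbols, coordinates and biotypes came from GENCODE release M21 (54495 identifiers found), and promoters from RefSeq.

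The diets were compared with edgeR's quasi-likelihood test (edgeR 4.0.16 in R 4.3.3), using TMM normalization, robust=TRUE, the filterByExpr filter and no factor but diet. Adjustment by Benjamini-Hochberg ran over 15751 genes, at a threshold of 0.05. FPKM served for levels between genes. An exact permutation test of 3 against 3 cannot go below 0.1, so none was run. Values are means ± SD (n = 3). The test was exchanged for DESeq2 1.42.0 or limma-voom (limma 3.58.1), the scaling for DESeq2's size factors or the plain library size, and the filter for none or for a minimum of 10 counts in 3 libraries. Further fits used robust=FALSE, a block for the replicate number, or 1 library fewer. On the FPKM scale, limma was run on log2(FPKM + 1) and log2(FPKM + 0.1), keeping genes with 0.5 FPKM or more in 3 libraries, and on log2(FPKM + 1) with all genes. The fits were first tested on simulated data in which 200 genes differed.

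The members, lists and tests were chosen with earlier results of these data known, and role groups were assigned after the counts had been seen. All described members are named. Full values are given for those past the threshold, the 5 with the highest mean FPKM and the 3 with the largest share of counts in 1 library, and of the partners for those called and Por. Other genes with values, such as Cyp1b1 and Cyp2s1, were chosen after their values were seen.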

Additional observations from a re-analysis of the deposited data

How the results depend on the processing

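The alternatives were run on the counts of calls, the 26 tested members and 16 partner genes. No gene that passed changed direction. Leaving out 1 library turned the sign of 7 genes that never passed. Over the main fit and all alternatives, their log2 fold changes ranged from -0.158 to 0.305 for Cyp1b1, -0.0014 to 0.1043 for Cyp4f13 and -0.0679 to 0.1465 for Cyp4f16. The range was -0.4663 to 0.0342 for Cyp2j9, -0.1227 to 0.2365 for Cyp2r1, -0.2944 to 0.8557 for Cyp46a1 and -0.2135 to 0.0637 for Ahr. Where the sign turned, the values lay between -0.2944 and 0.0637, with adjusted p-values of 0.508 or more by edgeR's test. Of the P450 genes lower on HFD (4), 2 passed with limma on log2(FPKM + 1) without the filter, and between 1 and 4 with 1 library left out, the lowest without ND1, ND2 or HFD1. Of those higher (4), DESeq2 gave 7, adding Cyp2c70, Cyp2s1 and Cyp4f39, and leaving out 1 library gave between 1 and 6. Cyp2f2 and Cyp4v3 passed under every alternative in which they were tested. Partner genes lower on HFD (4) numbered 10 with DESeq2, 1 without the filter on low counts, 1 with limma on log2(FPKM + 1) without the filter, and between 1 and 10 with 1 library left out. Partner genes higher on HFD (5) numbered 3 without the filter, 2 with limma on log2(FPKM + 1) without the filter, and between 1 and 5 with 1 library left out. The cause of these shifts was not tested.

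Equal replicate numbers gave no sign of pairing, since the correlations of their deviations were -0.0858, -0.0556 and -0.00532 and no library correlated best with its own number. The deviations were taken from the mean of only 3 libraries per diet, so this check cannot exclude a shared batch. With the replicate number as a block, 3 P450 genes were lower (Cyp2e1 had an adjusted p of 0.0553) and 4 higher, the partners gave 3 lower and 2 higher, and 1886 genes passed in all in place of 2504. Members with few counts, such as Cyp2b10 and Cyp2c23, limit what depth can show.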
